A study of Mus musculus with 2 samples.

Results

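The genes described here are 10 ligands and receptors of the vascular endothelial growth factor (VEGF) and angiopoietin systems, chosen by symbol from the platform's probe annotation among 19321 named genes: Vegfa, Vegfb, Vegfc, Kdr, Flt1, Flt4, Nrp1, Angpt1, Angpt2 and Tek. Each had 1 probe, and the probes of all 10 were above background on both arrays. They were measured in the gastrocnemius, a calf muscle, of female mice aged 10 weeks. One sample carried Pdgfra-CreER and R26-DTA and is called depleted, and the other was a wild-type littermate with R26-DTA and is called control. Both therefore carried the diphtheria toxin A allele at the Rosa26 locus, and both received tamoxifen at 9 weeks for 5 consecutive days and were killed 2 days later. CreER, which tamoxifen activates, was made where the Pdgfra promoter is active, so the toxin is expected in every cell type with PDGFRα and not in progenitors alone, and the control lacked CreER. Each group held 1 array of 1 sample, so there is no spread between animals, no test and no p-value, and differences between genotypes and between individuals cannot be told apart.

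VEGF-A is the main growth factor of blood vessels, and in skeletal muscle it is made by the fibres as well as by interstitial cells. It signals through KDR on endothelial cells, while FLT1 binds it tightly with little signalling and so limits its supply. VEGF-B binds FLT1 and neuropilin 1, VEGF-C acts mainly on FLT4 of lymphatic vessels, and neuropilin 1, the product of Nrp1, is a co-receptor. Angiopoietin 1, made by mesenchymal and mural cells, activates the endothelial receptor TIE2, the product of Tek, and keeps vessels quiescent. Angiopoietin 2, stored in endothelial cells, often opposes it.

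The sequences upstream of the transcription start of the main ligand, of VEGF-B and of the receptors that bind VEGF-A are shown, because Vegfa had the lowest ratio of the 10 genes and the other 3 belong to its own ligand and receptor system. RefSeq windows of build GRCm38.p6 matched 8 of the 10 genes by symbol, with 9 windows in all, since Vegfa has 2 annotated starts. The Vegfa window printed is that of the start farther upstream on the gene's strand. Each line holds the 250 bases before the start on the gene's own strand, with each GGGCGG or its complement, the GC box bound by Sp1-type factors, in capitals. The positions are chr17:46032378-46032627 for Vegfa, chr19:6987652-6987901 for Vegfb, chr5:147726012-147726261 for Flt1 and chr5:75978456-75978705 for Kdr, all on the minus strand.
Vegfa: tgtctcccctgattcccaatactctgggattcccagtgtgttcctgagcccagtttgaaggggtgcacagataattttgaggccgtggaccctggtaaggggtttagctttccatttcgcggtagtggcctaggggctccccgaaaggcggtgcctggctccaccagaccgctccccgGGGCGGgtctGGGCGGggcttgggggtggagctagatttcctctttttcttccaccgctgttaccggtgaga
Vegfb: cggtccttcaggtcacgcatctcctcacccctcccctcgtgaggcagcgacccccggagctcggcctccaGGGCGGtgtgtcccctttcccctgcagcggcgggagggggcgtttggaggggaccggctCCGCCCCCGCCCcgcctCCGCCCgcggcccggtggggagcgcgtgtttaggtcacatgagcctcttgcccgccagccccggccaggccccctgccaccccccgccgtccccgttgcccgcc
Flt1: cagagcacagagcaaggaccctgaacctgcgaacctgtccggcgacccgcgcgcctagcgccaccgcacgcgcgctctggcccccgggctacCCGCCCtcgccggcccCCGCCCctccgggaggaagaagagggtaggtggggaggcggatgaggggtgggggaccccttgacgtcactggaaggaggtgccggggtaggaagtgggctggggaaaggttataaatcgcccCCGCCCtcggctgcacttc
Kdr: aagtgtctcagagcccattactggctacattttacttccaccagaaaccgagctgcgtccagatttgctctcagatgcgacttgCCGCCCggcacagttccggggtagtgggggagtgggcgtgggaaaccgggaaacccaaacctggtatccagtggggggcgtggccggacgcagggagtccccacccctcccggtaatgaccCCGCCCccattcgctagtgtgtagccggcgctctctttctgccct

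The printed Vegfa window held 2 GC boxes, the nearer one 57 to 62 bases before the start. The Vegfb window held 4, of which a pair abut, the Flt1 window 3 and the Kdr window 2. Searched on both strands, GGGCGG was present in 32.7% of 32851 promoter windows of the same length. The printed windows were richer in G and C than most: 59.2% for Vegfa, 76.4% for Vegfb, 70.4% for Flt1 and 61.6% for Kdr, against a median of 52.4% over all windows. The window of Tek, at 51.2%, held no GC box. The 5-base core of the hypoxia response element, ACGTG, was in none of these 4 printed windows, against 16.6% of all windows, and GCGTG was found 2 times in Kdr, 2 times in Vegfb, 1 time in Flt1 and not in the printed Vegfa window, against 28.2% of all. The window of the other Vegfa start, chr17:46025164-46025413, held 1 GC box, 1 ACGTG, 207 to 211 bases before that start, and 1 GCGTG, 214 to 218 bases before it. That start lies downstream of the printed one, so its window lies inside the Vegfa gene, where such letters can be part of an exon. Whether they act as promoter elements was not tested. The letters describe the windows only.

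Log2 ratios are depleted over control. The main setting corrects background with an added offset, which shrinks the ratio of a dim gene, and the linear intensities that the authors deposited therefore come first for each gene. The spot intensities themselves are not scaled between arrays: a median probe lay at 53.3 in control and 59.8 in depleted muscle, and blank spots averaged 36.3 and 37.0. A gene was counted as different at 1.5-fold (0.58 on the log2 scale). By that rule 1 of the 10 genes was lower and 0 were higher in depleted muscle. Over the 18498 genes compared, 1.52% were at least 1.5-fold lower and 1.96% higher, so 363 of 645 such genes (56.3%) were higher. Among the 9249 genes at or above the median intensity, where all members but Flt4 lie, the shares were 3.05% and 3.92%. Scaling to the median in place of quantile normalization gave 125 lower and 896 higher genes, or 87.8% higher. None of the 10 genes differed 2-fold, as 0.919% of all genes did. The median log2 ratio of the 10 genes was -0.05, beside -0.0036 for all genes compared.

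Among the array-wide facts that touch these genes, Pdgfra, the gene of the targeted cells, had deposited intensities of 273.1 in control against 116.6 in depleted muscle, a log2 ratio of -0.94. In bulk muscle, fewer cells of a type and less RNA per cell cannot be told apart. Myofibre genes such as Ckm and Acta1 were among the brightest on both arrays. On each array 24 replicate spots of each of 2 positive control probes gave the error of a spot: the coefficient of variation was 10.8% and 10.9% in control and 7.62% and 6.59% in depleted muscle. The SD of the log2 ratio between spots at the same position was 0.13 for one probe and 0.16 for the other. After normalization the control spots were higher in depleted muscle, with mean log2 ratios of 0.60 and 0.47. The spot error covers spot noise of bright spots within an array and leaves out differences between animals. Over 1102 genes with several probes above background, the ratios of a gene's probes spanned 0.10 at the median and 0.36 at the 90th percentile. The members have 1 probe each, so no such check exists for them.

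Vegfa (probe M400000704) had the lowest ratio of the 10. Its deposited intensities were 164.1 in control against 88.5 in depleted muscle, and its spots read 165.2 and 131.2 before scaling. The depleted sample was thus lower on either scale. The fold was 1.85 in deposited values and 1.53 in the main setting, with a log2 ratio of -0.61. That is larger than the SD of the positive control spots (0.13 and 0.16), which are brighter than the Vegfa spots. It is of a size with the mean log2 ratios of those control spots (0.60 and 0.47), of opposite sign. The error of spots as dim as those of Vegfa was not measured. Vegfa lay at percentile 1.41 of all genes compared and at percentile 2.81 of those at or above the median intensity. In all 11 settings other than subtraction of the local background the ratio was negative, from -0.90 to -0.43. The filters and the mean of probes repeat the main value by construction, because Vegfa has 1 probe and it is above background on both arrays. Scaling to the median gave the smallest difference, below the 1.5-fold limit. Subtraction of the local background column put Vegfa at 0.11. That column read 97.5 at the Vegfa spot in control and 60.5 in depleted muscle, well above the blank spots. It followed the probes' own signal across each array (Spearman correlation across probes 0.941 in control and 0.972 in depleted).

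Vegfb (probe M200003383) was bright on both arrays, with deposited intensities of 1731.7 in control against 1518.6 in depleted muscle. Its fold was 1.14 in deposited values and its log2 ratio in the main setting -0.24. Neither its sign nor its size was the same in all settings: median scaling gave 0.12, and subtraction of the local background -1.72. Vegfb exceeded Vegfa in log2 ratio by 0.37 in the main setting and by 0.70 in deposited values. Vegfa had the lowest ratio of the 10 genes in both, so the sign of that gap was fixed in advance. With the local background subtracted the gap was -1.84.

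Vegfc (probe M200000565), the lymphatic growth factor, went from 42.5 in control to 51.8 in depleted muscle in deposited values. The log2 ratio was 0.12 in the main setting and 0.29 in deposited values, and it was positive in all settings run. The 3 VEGF ligands of the set therefore did not differ in one direction: in the main setting Vegfa and, by less, Vegfb were lower, and Vegfc was slightly higher. The ratio of Vegfc is no larger than the spot error of the control spots, which are brighter than its own.

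**Figure D1:**
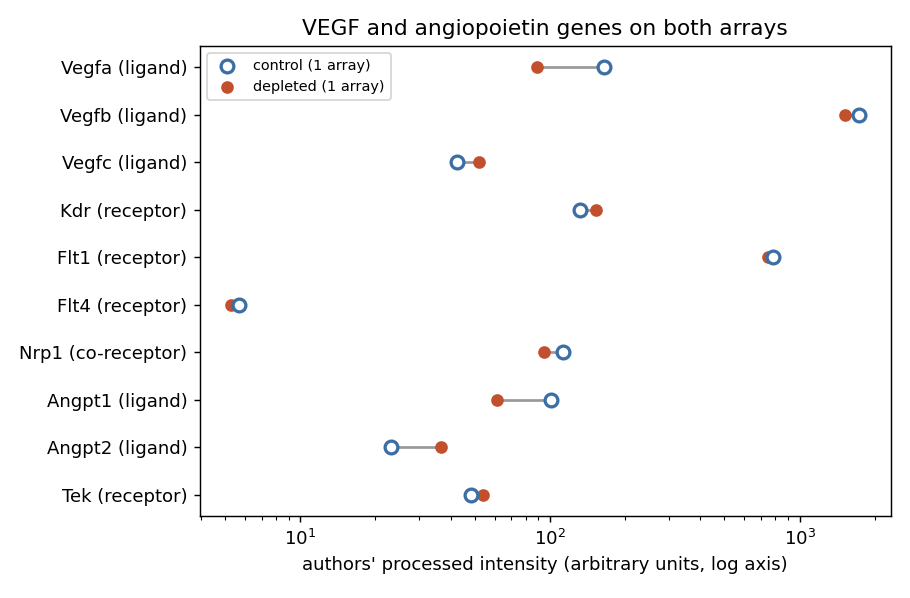
Authors' processed intensity (arbitrary units, log axis) of the 10 genes in control (open blue circles) and depleted muscle (filled orange circles), 1 array each and no error bars. The widest gaps belong to Vegfa (164.1 and 88.5), Angpt1 (101.1 and 61.6) and Angpt2 (23.0 and 36.7), while the receptors lie close together.

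The VEGF receptors differed little between the arrays. Kdr (probe M200000103), the main signalling receptor, had deposited intensities of 132.1 in control against 152.9 in depleted muscle and a log2 ratio of 0.14. Flt1 (probe M200001345), the high-affinity receptor for VEGF-A and VEGF-B, had 780.4 and 745.4, with a log2 ratio of -0.09. Subtraction of the local background put Kdr at -0.18, and median scaling turned Flt1 to 0.22, so its direction depends on the scaling. The ratios of both receptors in the main setting are no larger than about the spot error of the control spots, which are brighter than those of Kdr.

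Flt4 (probe M200001270), the lymphatic receptor, was barely above background: its spots read 40.8 in control and 42.6 in depleted muscle against limits of 37.4 and 38.5. Its deposited values were 5.7 and 5.3 and its log2 ratio -0.01, a range in which the offset leaves little room for a ratio to appear. Nrp1 (probe M300004780), the co-receptor, had deposited intensities of 113.3 in control against 94.6 in depleted muscle and a log2 ratio of -0.17. It was close to 0 with median scaling, at -0.0054, and at 1.71 with the local background subtracted.

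Set against Vegfa, the log2 ratio of Kdr was higher by 0.75 and that of Flt1 by 0.52 in the main setting. In deposited values these gaps were 1.10 and 0.82. Vegfa had the lowest ratio of the 10 genes in every setting except subtraction of the local background column. The positive sign of these gaps was therefore fixed in advance there, and only their size describes the receptors. Subtraction of the local background column gave -0.29 for Kdr and -0.12 for Flt1.

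The angiopoietins differed in opposite directions. Angpt1 (probe M300003197), the agonist of TIE2, had deposited intensities of 101.1 in control against 61.6 in depleted muscle, 1.64-fold lower. The main setting gave 1.34-fold, a log2 ratio of -0.42 at percentile 3.42 of all genes and 6.82 of those at or above the median intensity, which did not reach the 1.5-fold limit. Its ratio was negative under all alternatives but local background subtraction (0.17), from -0.73 to -0.28.

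Angpt2 (probe M300007722), the context-dependent antagonist, had deposited intensities of 23.0 in control against 36.7 in depleted muscle, 1.60-fold higher. The main setting gave a log2 ratio of 0.23, at percentile 90.9 of all genes and 82.5 of those at or above the median intensity. The probe is dim, so the offset shrinks this ratio. It was positive in every setting, and 1.12 with the local background subtracted. At 1.5-fold in deposited values the set held 2 lower genes, Vegfa and Angpt1, and 1 higher gene, Angpt2. The share over all genes compared in deposited values was 7.21% lower and 9.34% higher, far above that of the main setting.

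Tek (probe M300000795), their shared receptor, was nearly level, with deposited intensities of 48.2 in control against 54.1 in depleted muscle and a log2 ratio of 0.07. Subtraction of the local background gave -0.91. Angpt2 exceeded Angpt1 by 0.65 on the log2 scale in the main setting and by 1.39 in deposited values. Angpt2 had the highest ratio of the 10 genes in both, so the sign of that gap was fixed there. The gap was 0.96 with the local background subtracted, so it was positive in every setting run. These gaps compare changes of different probes, not levels of the proteins.

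**Figure D2:**
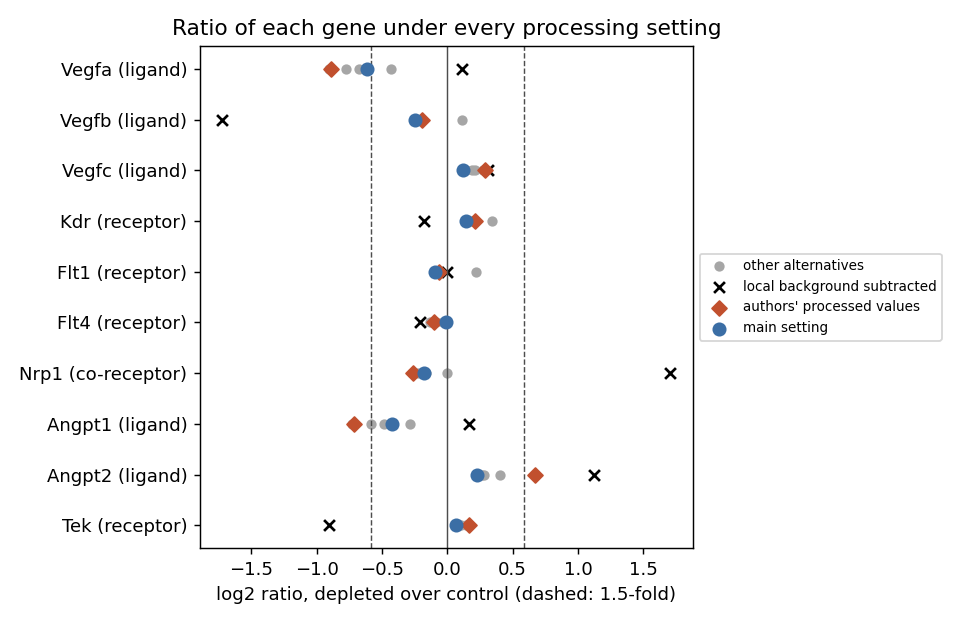
Log2 ratio, depleted over control, of each gene under the main setting (blue circles), the authors' processed values (orange diamonds), local background subtraction (crosses) and the other alternatives (grey circles); dashed lines mark 1.5-fold. Vegfa and Angpt1 stay left of 0 and Angpt2 right of 0, except that the crosses of Vegfa (0.11) and Angpt1 (0.17) lie right of it.

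**Figure D3:**
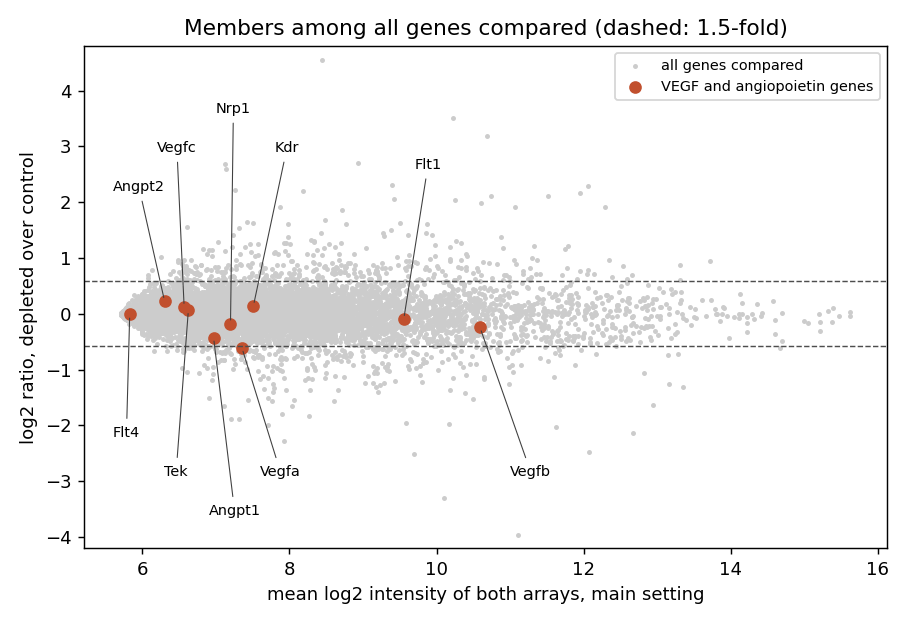
Log2 ratio, depleted over control, against mean log2 intensity for all 18498 genes compared (grey points) with the 10 members in orange, 1 array per group. The cloud narrows toward dim genes, and of the members only Vegfa, at -0.61, lies past the lower dashed line of 1.5-fold.

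Other members of the same families were measured too. Vegfd, a second ligand of FLT4, had deposited intensities of 37.5 in control against 70.8 in depleted muscle, 1.89-fold higher, and a log2 ratio of 0.43 at percentile 96.4 of all genes and 92.8 of the brighter ones. Pgf, placental growth factor, a ligand of FLT1, was at -0.07. The neuropilin Nrp2 was at 0.15, the TIE2 partner Tie1 at 0.11, the angiopoietin Angpt4 at 0.05 and Ptprb, the phosphatase that opposes TIE2, at -0.16. Of these 6 genes 0 reached 1.5-fold in the main setting, and their median was 0.08. With the local background column subtracted the median was -0.89, and Nrp2 (-3.17) and Tie1 (-1.58) changed sign.

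Below the receptors, 0 of 23 measured kinases, adaptors and effectors differed 1.5-fold, and their median was -0.0051. The largest ratios were those of Ppp3ca, a catalytic subunit of calcineurin, at -0.53 and of Sh2d2a, an adaptor that binds KDR, at -0.34. Subtraction of the local background turned Ppp3ca to 0.66. Endothelial genes that answer VEGF or TIE2 signalling gave the same count, 0 of 10, with a median of -0.02. Every gene counted as different in the main setting lay at or above the median intensity, and several of these 10 lie below it. Their count of 0 is therefore partly set by the processing. In deposited values 1 was counted as lower (Apln) and 1 as higher (Esm1, 1.81-fold). Apln had a deposited value of 3.6 in control and none in depleted muscle. Its 2.40-fold is therefore not measured but rests on a missing value set to the lowest one above background. Among these endothelial genes Rcan1, a calcineurin inhibitor that VEGF induces, was at 0.30 and Esm1, a tip cell gene, at 0.18 in the main setting. Esm1 was dim, with deposited intensities of 10.6 in control against 19.2 in depleted muscle, and Apln was not above background in depleted muscle.

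Genes that regulate Vegfa differed in either direction. Of 16 measured, 1 was at least 1.5-fold lower and 2 were higher in the main setting, beside 1.52% and 1.96% of all genes compared, with a median of 0.08. In deposited values 1 was lower and 4 were higher, beside 7.21% and 9.34% of all genes, with a median of 0.31. Ppargc1a, a transcriptional coactivator that drives Vegfa in muscle fibres, had deposited intensities of 427.0 in control against 197.3 in depleted muscle and a log2 ratio of -0.96, and its dimmer probe gave -0.50. Its partner Esrra, an orphan nuclear receptor, was at -0.47, and Zfp36l1, of the same list, was at 0.46, neither of them past 1.5-fold. Egln3, a hydroxylase that marks hypoxia-inducible factors for degradation and is also their target, had deposited values of 168.8 and 501.8 and a log2 ratio of 1.29. Hnrnpl, an RNA-binding protein that stabilises Vegfa mRNA, was at 0.59. Hif1a itself was at 0.14 and Epas1 at 0.04. Of the 16 ratios 5 were negative and 11 positive. The part of these regulators in the ratio of Vegfa was not tested.

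Other targets of hypoxia-inducible factors were split in direction. Of 20 measured, 1 was at least 1.5-fold lower and 2 were higher in the main setting, beside 1.52% and 1.96% of all genes compared. Among them 10 had a negative ratio and 10 a positive one, and the median was -0.0023. In deposited values 3 were lower and 4 higher, beside 7.21% and 9.34% of all genes, with a median of -0.02. Pfkfb3, which stimulates glycolysis, was at 1.45 and Bnip3, a mitophagy receptor, at 1.16, while the hexokinase Hk2 was at -0.79, a direction that subtraction of the local background turned (0.85). FoxO factors and other regulators control some of these genes as well, and which factor acted here was not tested.

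Among 15 other secreted regulators of vessel growth 1 was lower and 1 higher, with a median of -0.03. The matrix protein Sparc, which binds growth factors, was at -0.67, and at 0.46 with the local background subtracted. Thbs1, thrombospondin 1, an inhibitor of angiogenesis, had deposited intensities of 18.0 in control against 81.6 in depleted muscle and a log2 ratio of 0.88.

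Markers of the cell types that carry these ligands and receptors were read on the same arrays. Of 14 blood endothelial markers 0 were lower and 1, the junction gene Cldn5 (0.83), was higher in the main setting, with a median of 0.02. Their summed deposited intensities were 1570.1 in control against 1871.1 in depleted muscle, of which Egfl7 alone gave 533.3 and 683.8. Of the 14 ratios 6 were negative and 8 positive. In deposited values 1 was lower, Sox17 (83.8 in control against 52.3 in depleted muscle), and 1 higher, beside 7.21% and 9.34% of all genes compared. The defining markers Pecam1 and Cdh5 were above background on both arrays, Cdh5 only just. Of 6 lymphatic markers 0 reached 1.5-fold in the main setting, with a median of -0.02. The largest ratios there were those of Pdpn, which mesenchymal cells also express, at -0.40, which the local background turned to 0.65, and of Mmrn1 at 0.22. In deposited values 1 of the 6, Mmrn1, was higher, by 1.71-fold. Of 10 mural markers 2 were higher in the main setting, Tagln (0.68) and Acta2 (0.61), with a median of 0.09. In deposited values 4 were higher, these and Notch3 and Myh11. The summed mural values were 2668.2 and 3596.4, of which Acta2 gave 1016.4 and 1633.1.

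Mesenchymal progenitor markers, which include cells known to make Angpt1, were lower in 7 of 11 members, 0 were higher and the median was -0.97. Lum was at -1.84, Dpt at -1.23, Col3a1 at -1.22 and Smoc2 at -1.16. Their summed deposited intensities were 21294.1 in control against 10538.0 in depleted muscle, of which the bright Gsn alone gave 12540.5 and 5485.4. Macrophage markers, whose cells can make VEGF ligands and carry Nrp1, were higher in 6 of 9 genes, and their median was 0.74. Their summed values were 3203.7 and 7060.2, of which Lyz2 alone gave 1732.3 and 4337.4. The lysozyme Lyz2 was at 1.22, the complement genes C1qc and C1qb at 0.91 and 0.84 and the chemokine receptor Ccr2 at 0.83. Local background subtraction turned Cldn5 (-0.16) and Lyz2 (-7.38) in sign. The part of either list in the ratios of the ligands was not tested.

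Myofibre genes, from the other source of Vegfa, were lower in 1 of 10 members, the calcium-binding Casq1 (-2.03), with a median of -0.10. In deposited values 3 of 10 were at least 1.5-fold lower, beside 7.21% of all genes compared, and the median was -0.46. Negative ratios of any size numbered 7 in the main setting and 10 in deposited values, so the size of that shift depends on the scaling. Red cell genes were lower in 4 of 5 members: Hbb-bt was at -3.30, Hbb-bs at -2.47, Hba-a2 at -2.13 and Alas2 at -0.64. Globin probes can share signal, and the red cell list summed to 31773.9 in control against 5724.4 in depleted muscle. Their part in the ratios of vascular genes was not tested.

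**Figure D4:**
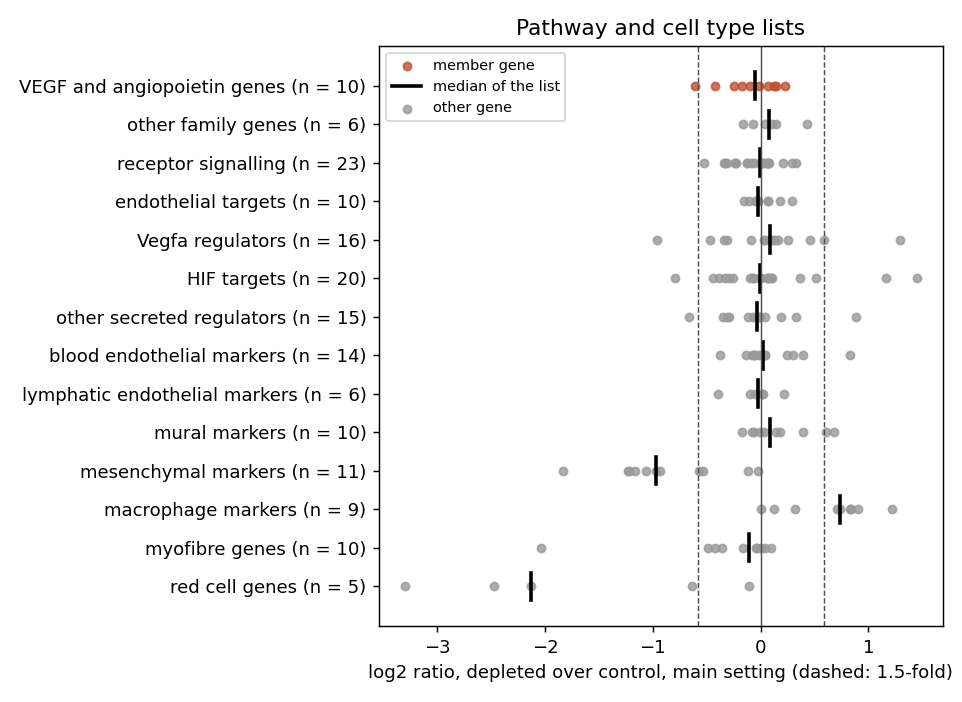
Log2 ratio, depleted over control, in the main setting for each measured gene of the VEGF and angiopoietin set (orange) and of 13 pathway and cell type lists (grey), with the median of each list as a black bar and dashed lines at 1.5-fold. The medians of the vascular and signalling lists lie near 0, those of mesenchymal markers (-0.97) and red cell genes (-2.13) to the left and that of macrophage markers (0.74) to the right.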

How the data were processed

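Arrays with a single Cy5 label held 23473 probes, of which the platform annotation gives 20690 a single symbol and leaves 2783 unnamed, and updating by Entrez gene changed 0 symbols. The scanner files hold spot intensities, the median pixel at 635 nm combined over 3 gains, per the file headers, and are neither background-subtracted nor scaled. The authors also deposited processed intensities, with a median of 25 on both arrays, which on each array equal the spot intensity minus about the blank mean, multiplied by 1.27 in control and 0.939 in depleted muscle. The position of a probe on its transcript is not known, so isoforms cannot be told apart.

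In the main setting, limma 3.58.1 in R 4.3.3 applied normexp with an offset of 50, log2 and quantile normalization. A gene took its brightest probe. Above background means over the blank mean plus 2 SD (37.4 in control, 38.5 in depleted), and 18498 genes above it on at least 1 array were compared, a dim value being raised to the lowest one above background. With 1 array per group there was no test. The procedure was tested on simulated data, where the offset shrank the ratios of dim genes. Tables used Python 3.11.15, numpy 2.4.6 and pandas 2.3.3, plots matplotlib 3.10.9. Members, lists, thresholds and the rule for named genes were chosen with earlier results of these data known. The rule names Pdgfra, the members, the measured family genes, and of each other list up to 4 genes at least 1.5-fold different or else its 2 largest. Named besides were Esrra, Zfp36l1, Hif1a, Epas1, Apln, Pecam1, Cdh5, Egfl7, Sox17, Notch3, Myh11, Gsn, Ckm and Acta1. With 2 arrays no likeness of pattern between genes can be measured.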

Additional observations from a re-analysis of the deposited data

Results flagged for a closer look

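Positive control spots, which entered no comparison of genes and served only to give the spot error, were brighter on the depleted array. The mean spot intensity of one control probe was 851 over 24 spots in control and 1800.2 in depleted muscle, a ratio of 2.12, and that of the other was 5668 and 9837, a ratio of 1.74. They were singled out because their signal exceeds that of the control array outside the genes compared. After the main normalization their mean log2 ratios were 0.60 and 0.47, of a size with the ratio of Vegfa and of opposite sign. What these spots bind is not given in the sources used here, and the cause was not tested.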

How the results depend on the processing

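No paired analysis was possible because only 1 array stands for a group. Of 109 ratios of the 10 genes under the alternatives, 99 stayed on the same side of the 1.5-fold limit, 6 came to pass it in the same direction, 1 came to miss it (Vegfa with median scaling, -0.43), 2 passed it in the other direction (Nrp1 at 1.71 and Tek at -0.91) and 1 reversed (Vegfa at 0.11). The last 3 and the ratio of Vegfb (-1.72) arose with the local background column subtracted. The count of lower genes among the 10 (1 in the main setting) was 2 with the blank spots subtracted, the local background subtracted and the authors' values, and 0 with median scaling and at 2-fold. The 2 were Vegfa and Angpt1 with the blank spots and the authors' values, but Vegfb and Tek with the local background. The count of higher genes (0) was 1 with the blank spots subtracted and the authors' values, and 2 (Nrp1 and Angpt2) with the local background subtracted. Of 18498 genes, 1410 were lower and 1649 higher with the blank spots subtracted, 3626 and 3969 with the local background subtracted. The median of the other family genes was -0.89 with the local background subtracted. No other list median crossed 1.5-fold, and the median of the 10 genes ran from -0.12 to 0.14. Of 404 ratios of the 37 other genes that the rule names, 376 stayed on the same side, 15 came to pass the limit in the same direction and 5 came to miss it: Hk2 (-0.46), Sparc (-0.35) and Alas2 (-0.54) with median scaling, Thbs1 (0.45) and Tagln (0.37) with the local background subtracted. With the latter 4 passed it in the other direction, Ppp3ca (0.66), Pdpn (0.65), Nrp2 (-3.17) and Tie1 (-1.58), and 4 reversed: Hk2 (0.85), Sparc (0.46), Cldn5 (-0.16) and Lyz2 (-7.38). Filters and the mean of probes cannot move a gene with 1 probe above background, and Flt4, below the median intensity, gave no value there. Causes were not tested, except that the 2-fold limit is stricter by construction. Signal over background limits Flt4 and Angpt2 most.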
